A study of Mus musculus with 10 samples.

Results

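The 33 genes described here encode the steps that carry pyruvate into the mitochondrion, turn it into acetyl-CoA, oxidize it in the tricarboxylic acid (TCA) cycle, and move reducing equivalents between cytosol and mitochondrion through the malate-aspartate shuttle. They were listed by name and not by a cut on measured values, but earlier results of these data were known when the list was made. Succinate dehydrogenase was left out of the list. All 33 were among the 16112 genes in the files. RNA was sequenced from the extensor digitorum longus (EDL) and psoas, which are fast-twitch muscles, and from the soleus, a slow-twitch muscle. The 10 libraries came from wild type mice of the strain B6C3Fe a/a-Ttnmdm/J, with no treatment named, and the mutant animals that this strain can give were not among them. The 3 EDL libraries came from mice aged 42, 54 and 44 days, the 3 psoas libraries from mice aged 42, 54 and 44 days, and the 4 soleus libraries from mice aged 42, 44, 32 and 44 days. Both sexes were used, with 5 libraries recorded from male and 4 from female mice. The labels hold 7 animal codes, of which 3 are shared by a soleus and a fast muscle library. The study's methods name fewer mice than there are codes, and which libraries share an animal is known here only from the codes.

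Total counts ranged from 12737971 to 50431713 per library. Reads had been trimmed for quality in EDL 1 and 2 and psoas 1 and 2 but in none of the other 6 libraries, which include all of soleus, so that trimming and muscle are partly confounded. The muscle labels fitted the myosin heavy chains: slow Myh7 was at 6836 CPM (counts scaled to a common library size with TMM factors) or more in each soleus library, and at 117 CPM or less in EDL and 9.95 CPM or less in psoas. EDL 1 and 2 differed from EDL 3 in other ways. Summed transcripts of 5 macrophage markers reached 132 and 136 CPM in EDL 1 and 2 and 61.3 CPM in EDL 3, and skeletal actin, Acta1, was at 8746 and 8883 CPM against 18863 CPM. Of the 33 genes, 29 had their highest EDL level in EDL 3, and 20 had their lowest level of all 10 libraries in EDL 1 or 2. The same was not counted over all genes, so it may not be particular to the members. Summed transcripts of 16 respiratory chain genes had the same order, at 6858 and 7394 CPM in EDL 1 and 2 and 9672 CPM in EDL 3. The part that trimming and other cells take in the EDL values was not tested.

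Pyruvate made by glycolysis crosses the inner mitochondrial membrane through the carrier formed by Mpc1 and Mpc2 and is decarboxylated by the pyruvate dehydrogenase complex. Kinases (Pdk1 to Pdk4) phosphorylate and inactivate this complex, and phosphatases (Pdp1, Pdp2) reactivate it, so that their balance helps set whether muscle burns carbohydrate or fatty acids. Slow oxidative fibers are rich in mitochondria, whereas fast glycolytic fibers regenerate cytosolic NAD largely by making lactate and through the glycerol phosphate shuttle.

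Promoter sequences were read for the 31 members that have an entry in the RefSeq table (GRCm38.p6), with 250 bases before and 50 bases after each start. The letters TCAAGGTCA and TNAAGGTCA, an extended half-site that estrogen-related receptors bind, were in no member on either strand, against 0.466% and 1.43% of the 27025 genes in the table. The letters GCGCATGCG, which the factor NRF1 binds, were in 1 of the 31 members, Ogdh, against 1.95% of all genes. The shorter half-site AGGTCA, which TCAAGGTCA contains, was in 8 of the 31 (25.8%), against 18.1% of all genes. These 8 were Fh1, Got1, Got2, Idh3g, Mpc1, Ogdh, Pcx and Sucla2. The 250 bases before the start are shown for the 2 members that were furthest apart between muscles, Idh2 and Pdk4, which held none of these letters, and for Ogdh and Got2, which each held a match. Capitals mark a match to GCGCATGCG or AGGTCA on either strand. All are written 5′ to 3′ on the strand of the gene.
Idh2, chr7:80115351-80115600, minus strand: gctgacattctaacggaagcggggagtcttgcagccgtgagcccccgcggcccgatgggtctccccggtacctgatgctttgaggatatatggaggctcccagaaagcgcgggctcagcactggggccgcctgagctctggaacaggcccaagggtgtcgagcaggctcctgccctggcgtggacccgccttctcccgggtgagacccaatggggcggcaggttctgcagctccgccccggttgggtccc
Pdk4, chr6:5496279-5496528, minus strand: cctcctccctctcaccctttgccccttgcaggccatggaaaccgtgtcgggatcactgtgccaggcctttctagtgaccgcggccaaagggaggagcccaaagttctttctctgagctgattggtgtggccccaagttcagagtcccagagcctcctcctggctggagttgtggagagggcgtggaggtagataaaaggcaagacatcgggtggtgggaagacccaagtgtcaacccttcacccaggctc
Ogdh, 1 of its several starts, chr11:6292308-6292557, plus strand: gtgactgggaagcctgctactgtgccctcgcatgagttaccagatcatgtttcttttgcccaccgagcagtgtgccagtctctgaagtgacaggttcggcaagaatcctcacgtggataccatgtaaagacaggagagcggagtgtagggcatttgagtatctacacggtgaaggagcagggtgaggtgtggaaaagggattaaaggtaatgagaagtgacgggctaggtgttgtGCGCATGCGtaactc
Got2, chr8:95888402-95888651, minus strand: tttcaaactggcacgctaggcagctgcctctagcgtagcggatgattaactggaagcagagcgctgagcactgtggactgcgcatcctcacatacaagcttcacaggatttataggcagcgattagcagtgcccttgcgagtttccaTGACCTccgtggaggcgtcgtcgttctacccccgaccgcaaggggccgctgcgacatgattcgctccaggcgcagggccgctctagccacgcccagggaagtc
The match in Ogdh began 15 bases before the start, and that in Got2, on the opposite strand, 103 bases before it. These starts are those of RefSeq. In GENCODE M21 the genes begin further upstream, Ogdh at chr11:6291633 and Got2 at chr8:95888547, so both matches lie inside the genes as annotated there. A match is a description of the letters only.

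Of the 33 genes, 28 had a log2 fold change above 0 in soleus vs EDL, most of them by less than 2-fold, and a few, led by Idh2 and Pdk4, stood far apart from the rest. All 10 libraries entered 1 fit with the quasi-likelihood test of edgeR, and p-values were adjusted over all 16112 genes. In soleus vs EDL, 14 of the 33 genes were upregulated at an adjusted p under 0.05 and 1, Pdp1, was downregulated, beside 9.79% and 8.8% of all genes tested. The median log2 fold change of the 33 was 0.60, and that of all genes -0.05. In soleus vs psoas, 3 were upregulated and 2 downregulated, beside 7.75% and 6.78% of all genes, and the median of the 33 was 0.06. These 2 comparisons share the soleus libraries. In psoas vs EDL, 6 were upregulated and 0 downregulated, beside 4.76% and 6.34% of all genes, with a median of 0.40 over the 33. For the 0 downregulated genes, edgeR gave 1 at an unadjusted p under 0.05, and DESeq2 and limma-voom gave 0 and 0 at an adjusted p under 0.05. With sex as a factor, and likewise without soleus 3, edgeR called 1 downregulated in psoas vs EDL. The fit with sex used only the 5 male and 4 female libraries.

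At the stricter thresholds of the study (adjusted p below 0.01, more than 2-fold), Pdk1, Pdk4 and Idh2 were upregulated in soleus vs EDL, Pdk1 and Idh2 in soleus vs psoas, and Dlat in psoas vs EDL. These are 3, 2 and 1 of the 33, beside 3.59%, 2.99% and 0.54% of all genes called in the same direction. Downregulated by this rule were 2.18%, 2.71% and 1.57% of all genes. No member was downregulated by this rule in the reported edgeR fit or with limma-voom (0 in each comparison). In soleus vs psoas DESeq2 called 1, and 1 passed an unadjusted p under 0.05 and the fold with edgeR. In that comparison edgeR also called 1 downregulated with trimming as a factor, and with the run proxy (trimming combined with age). It called 1 without psoas 2 as well. Of these stricter calls, those of Pdk1, Pdk4 and Idh2 in soleus vs EDL were lost in 1, 4 and 3 of 22 alternative fits, and those of Pdk1 and Idh2 in soleus vs psoas in 9 and 2. In the reported edgeR fit, 17 of the 33 passed neither rule in any comparison. This does not show equal levels, as edgeR recovered 11% of simulated 2-fold changes in soleus vs EDL at an adjusted p under 0.05. The 4 genes called by the stricter rule are Idh2 (ENSMUSG00000030541, chr7:80094846-80115392), Pdk1 (ENSMUSG00000006494, chr2:71873224-71903858), Pdk4 (ENSMUSG00000019577, chr6:5483351-5496309) and Dlat (ENSMUSG00000000168, chr9:50634633-50659780), with positions of GENCODE M21 on GRCm38.

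The calls against EDL rested in part on EDL 1 and 2. Without EDL 1 the 15 calls at an adjusted p under 0.05 in soleus vs EDL became 6, without EDL 2 they became 7, and without soleus 3 they became 9. Over all genes, 1577 upregulated and 1418 downregulated calls became 675 and 662, 754 and 570, and 1163 and 1209 in these fits. Leaving out psoas 3, soleus 1 or soleus 4 turned the 5 calls of soleus vs psoas into 2, 3 and 2. Over all genes, 1248 and 1092 became 1066 and 1006, 1094 and 893, and 890 and 746. Leaving out EDL 1, 2 or 3 turned the 6 calls of psoas vs EDL into 1, 3 and 10. Over all genes, 767 and 1022 became 96 and 350, 155 and 413, and 1689 and 1711. The changes in calls were thus not particular to the members. With only the 6 untrimmed libraries, 1 EDL and 1 psoas library remained, assumed to vary like soleus. Psoas vs EDL was then 1 library against 1, so a call lost there cannot tell whether the gene differs. In soleus vs EDL the log2 fold changes were then 1.55 for Pdk1, 4.83 for Pdk4 and 3.08 for Idh2. Several others were smaller than with all libraries, such as 0.49 for Ogdh and 0.53 for Cs. In soleus vs psoas Idh2 was at 2.48 and Pcx at -2.01. As each sample is a whole muscle, a higher level per fiber and a larger share of fibers that express a gene cannot be told apart.

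**Figure D1:**
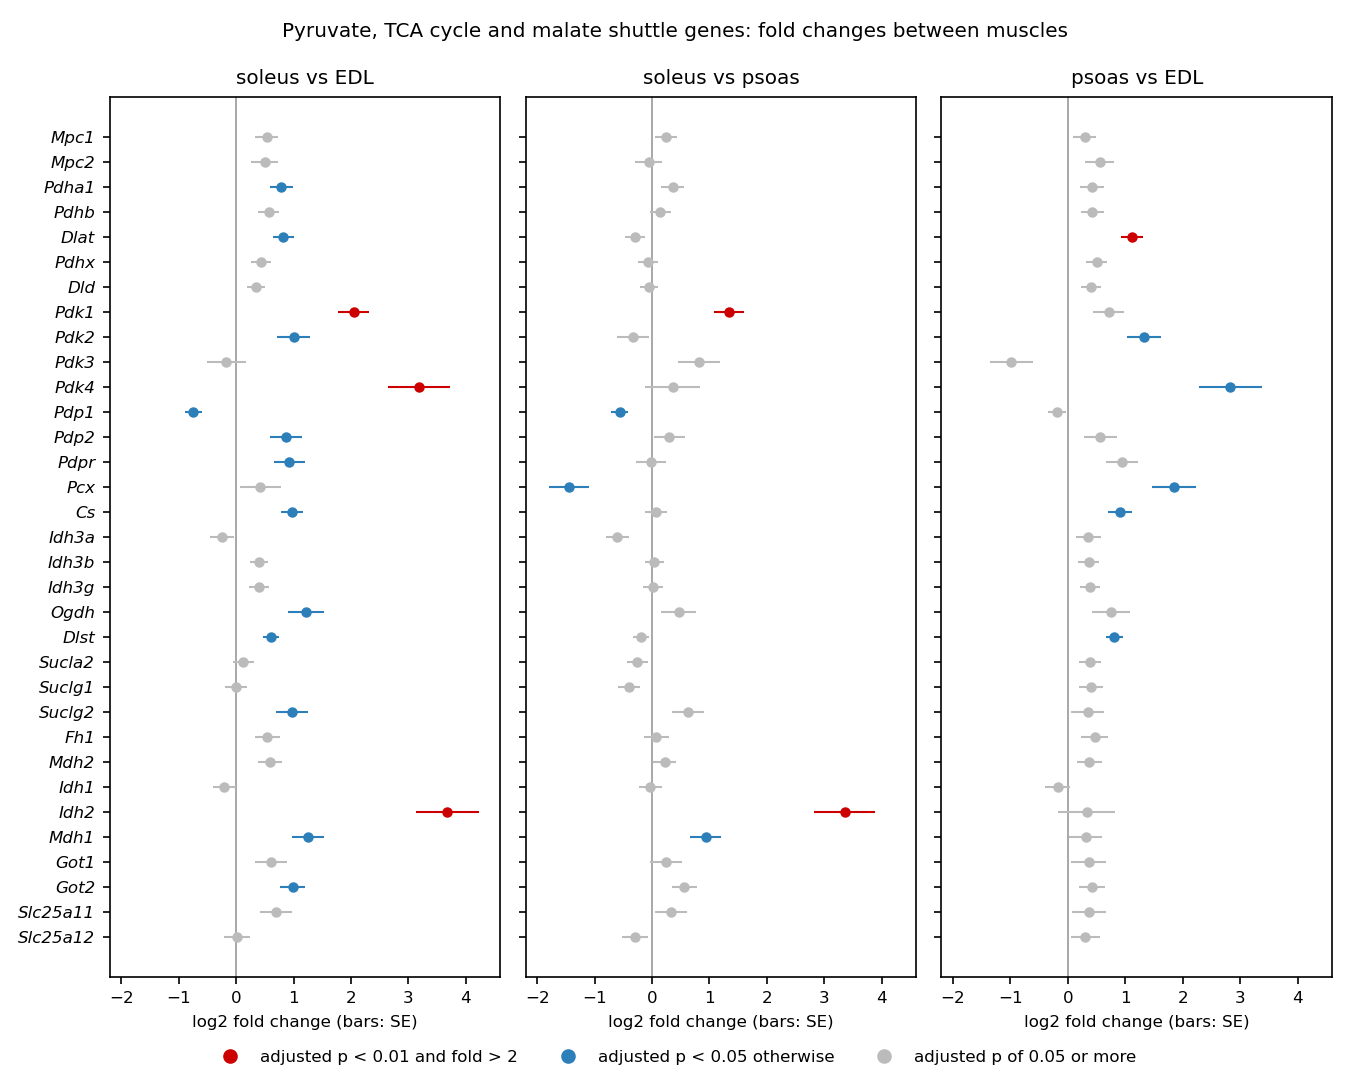
Log2 fold changes of the 33 genes (points) with their SE (bars) in the 3 comparisons, colored by whether they passed the stricter rule (adjusted p below 0.01 and over 2-fold), or an adjusted p under 0.05. Idh2 at 3.68 and 3.35 and Pdk4 at 3.19 (soleus vs EDL) and 2.83 (psoas vs EDL) lie furthest to the right, while Pdp1 and Pcx lie left of 0 in soleus vs psoas.

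For the pyruvate carrier and the dehydrogenase complex the log2 fold changes in soleus vs EDL were all above 0 and under 1. Of these 7 genes, 2 passed the test, beside 9.79% of all genes upregulated. Mpc1 and Mpc2 had log2 fold changes of 0.53 and 0.50 that did not pass the test, although the soleus libraries lay above the EDL libraries for both. Exons of Mpc1, Got2, Slc25a11, Mdh1 and Idh3b overlap exons of an opposite-strand gene by 480, 434, 189, 52 and 5 bases. Of the 5 genes of the complex, Pdha1, the catalytic subunit of E1, and Dlat, the E2 acetyltransferase core, passed at an adjusted p under 0.05, and Pdhb, Pdhx and Dld did not (log2 fold changes between 0.34 and 0.57). Non-overlap alone was common, as 15.2% of all genes had every soleus library above every EDL library, and 23 of the 33 members did.

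Pdha1 expression was 411, 371 and 545 CPM in EDL, 498, 631 and 650.4 CPM in psoas, and 835, 661, 846 and 707 CPM in soleus. The soleus libraries were all above the others, and the difference from EDL was 1.72-fold (log2 fold change 0.79, SE 0.20, adjusted p = 0.0211). Against psoas it did not pass (log2 fold change 0.36, SE 0.20, adjusted p = 0.266). The call against EDL was lost in 8 of 22 alternatives, among them the fits without EDL 1, EDL 2, soleus 1 or soleus 3. Opposite-strand exons of Map3k15 overlap Pdha1 by 603 bases, and the strand setting of the counting is not stated, so reads of both could be mixed.

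Dlat expression was 38.9, 49.1 and 58.7 CPM in EDL, 101, 122 and 95.4 CPM in psoas, and 100.03, 89.6, 79.8 and 76.4 CPM in soleus. Every psoas and soleus library lay above every EDL library. The increase was 2.18-fold in psoas vs EDL (log2 fold change 1.12, SE 0.19, adjusted p = 0.00687) and 1.77-fold in soleus vs EDL (log2 fold change 0.82, SE 0.18, adjusted p = 0.0109). With only the untrimmed libraries the psoas vs EDL value was 0.66. This was the 1 of 22 alternatives in which the call was lost at an adjusted p under 0.05, and it set 1 library against 1. By the stricter rule the psoas vs EDL call was lost in 11 of 22, among them the 2 muscles compared alone and 8 of the 10 fits that leave out a library (each except EDL 3 and soleus 3). The soleus vs EDL call was lost in 4 of 22, among them the fit without EDL 1.

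The pyruvate dehydrogenase kinases were lowest in EDL as a sum and differed in which isoform set the muscles apart. Summed over Pdk1 to Pdk4, their level was 37.5 ± 12.8 FPKM (CPM per kilobase of exon; SD, n = 3) in EDL, 193 ± 8.58 FPKM in psoas (n = 3), and 256 ± 83.0 FPKM in soleus (n = 4). Pdk4 was most of this sum in each library except EDL 3.

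Pdk4, the isoform induced by fasting and fatty acids, was at 75.1, 144 and 25.3 CPM in EDL, 559.9, 589 and 590.5 CPM in psoas, and 970.1, 334, 927 and 742 CPM in soleus. The EDL libraries lay below the rest, and within muscles the EDL and soleus libraries spread widely, with EDL 3 at 25.3 CPM and soleus 2 at 334 CPM. Pdk4 was upregulated 9.10-fold in soleus vs EDL (log2 fold change 3.19, SE 0.54, adjusted p = 0.00298) and 7.10-fold in psoas vs EDL (log2 fold change 2.83, SE 0.55, adjusted p = 0.0115). Between soleus and psoas it did not pass (log2 fold change 0.36, SE 0.48, adjusted p = 0.679). The soleus vs EDL call held at an adjusted p under 0.05 in all 22 alternatives, with a highest adjusted p of 0.0245. The psoas vs EDL call was lost without EDL 1. It was also lost with only the untrimmed libraries, 1 library against 1, where the log2 fold change was 4.51.

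Pdk1 differed from Pdk4 in that psoas was nearer to EDL. Pdk1 expression was 52.4, 47.3 and 83.6 CPM in EDL, 68.2, 99.0 and 133 CPM in psoas, and 232, 237, 297 and 243 CPM in soleus. The 4 soleus libraries were close together and above all others. The increase was 4.13-fold in soleus vs EDL (log2 fold change 2.05, SE 0.27, adjusted p = 0.000655) and 2.52-fold in soleus vs psoas (log2 fold change 1.336, SE 0.26, adjusted p = 0.00607). In psoas vs EDL the libraries overlapped and the test was not passed (log2 fold change 0.71, SE 0.27, adjusted p = 0.112). The soleus vs EDL call held at an adjusted p under 0.05 in all 22 alternatives. The soleus vs psoas call was lost with the run proxy (trimming combined with age) as a factor and with only the untrimmed libraries, where the value was 0.91 (adjusted p = 0.112).

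Pdk2, the kinase found in most tissues, was at 12.4, 13.0 and 28.6 CPM in EDL, 50.2, 34.2 and 50.3 CPM in psoas, and 35.5, 41.2, 32.3 and 34.1 CPM in soleus. It was lowest in EDL, with EDL 3 at more than 2 times the level of EDL 1 and 2. It was upregulated in psoas vs EDL (log2 fold change 1.33, SE 0.30, adjusted p = 0.0189) and in soleus vs EDL (log2 fold change 1.002, SE 0.28, adjusted p = 0.0312). Both calls were lost without EDL 1 and without EDL 2 alike, with only the untrimmed libraries, and in several other alternatives. Pdk3 was expressed at low levels, at 1.96, 1.96 and 1.92 CPM in EDL, 0.897, 1.08 and 0.991 CPM in psoas, and 2.46, 2.03, 0.718 and 1.64 CPM in soleus, with as few as 9 counts in a library. It passed in no comparison, and psoas was lowest (psoas vs EDL log2 fold change -0.99, SE 0.37, adjusted p = 0.108).

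The make-up of the kinase pool varied with the muscle and, in EDL, between libraries. Pdk4 was 56.7 ± 27.5% of the summed kinase FPKM in EDL (SD, n = 3), 85.8 ± 2.12% in psoas, and 80.7 ± 8.40% in soleus (n = 4). The EDL share spanned 26.0% in EDL 3 to 79.0% in EDL 2. Pdk1 was 6.62 ± 1.86% in psoas and 13.9 ± 5.43% in soleus, and each soleus library lay above each psoas library. In EDL it was highest on average, at 23.7 ± 13.8%, and overlapped soleus, from 11.7% in EDL 2 to 38.8% in EDL 3. These shares are descriptions with no test.

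**Figure D2:**
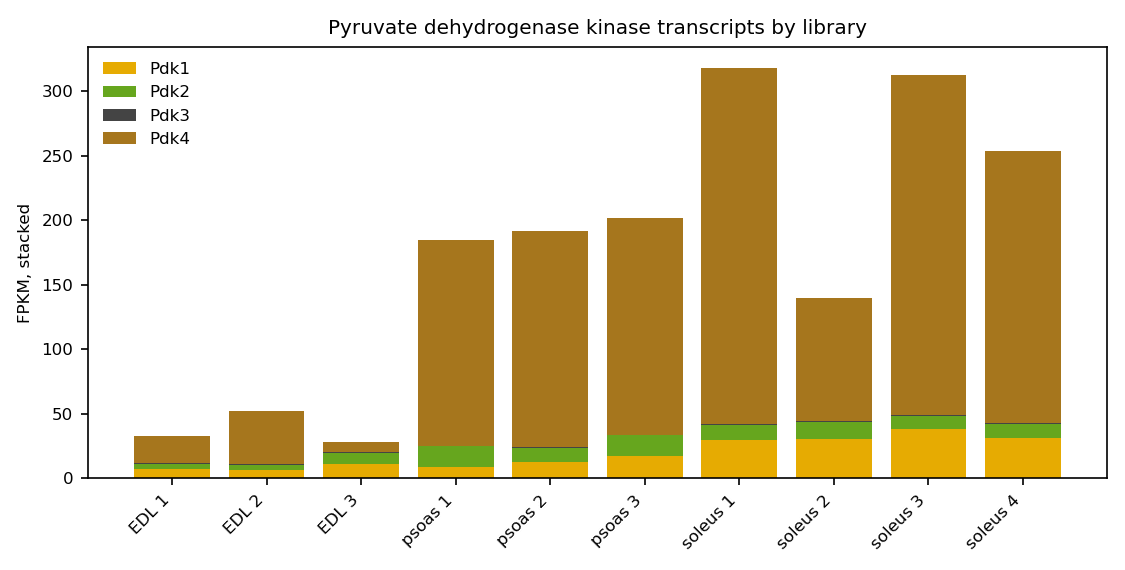
Stacked FPKM (vertical axis) of the 4 pyruvate dehydrogenase kinases in each of the 10 libraries. The 3 EDL bars reach 27.7 to 52.1 FPKM, and the psoas and soleus bars 140 to 318 FPKM, of which Pdk4 is the largest piece.

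The 2 phosphatases changed in opposite directions in soleus vs EDL. Pdp1, the calcium-stimulated phosphatase of contracting muscle, was the 1 member of the 33 that passed the test as lower in soleus against both fast muscles. Pdp1 expression was 132, 121 and 144 CPM in EDL, 105, 127 and 116 CPM in psoas, and 71.8, 83.5, 87.1 and 72.0 CPM in soleus. The 4 soleus libraries were below all others. It fell 1.68-fold in soleus vs EDL (log2 fold change -0.75, SE 0.15, adjusted p = 0.00618) and 1.48-fold in soleus vs psoas (log2 fold change -0.56, SE 0.15, adjusted p = 0.0264). With only the untrimmed libraries the 2 values were -0.92 (adjusted p = 0.063) and -0.58 (adjusted p = 0.207). The call against EDL was lost in 2 of 22 alternatives and that against psoas in 7, among them the fits without psoas 2, psoas 3, soleus 1 or soleus 4.

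Pdp2, the second phosphatase, was expressed at far lower levels than Pdp1, at 3.29, 2.24 and 3.73 CPM in EDL, 5.83, 2.79 and 4.89 CPM in psoas, and 5.61, 6.04, 4.94 and 5.75 CPM in soleus, and was upregulated in soleus vs EDL (log2 fold change 0.87, SE 0.27, adjusted p = 0.0465). That call was lost in 14 of 22 alternatives. Per kilobase, the Pdp1 to Pdp2 ratio was 50.6, 68.2 and 48.5 in EDL, 22.6, 57.7 and 30.1 in psoas, and 16.2, 17.5, 22.2 and 15.8 in soleus, so each soleus library lay below each EDL and psoas library. Pdpr, the regulatory subunit of the phosphatase, was at 35.4, 45.6 and 86.3 CPM in EDL, 96.5, 94.8 and 130.1 CPM in psoas, and 98.0, 110.2, 107 and 108 CPM in soleus. EDL 1 and 2 were low, and EDL 3 was below psoas and soleus by less. It was upregulated in soleus vs EDL (log2 fold change 0.93, SE 0.27, adjusted p = 0.0349), a call lost in 9 of 22 alternatives, among them the fits without EDL 1 and without EDL 2. Pdpr exons overlap an opposite-strand gene by 169 bases.

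Pcx, pyruvate carboxylase, makes oxaloacetate from pyruvate and so refills the TCA cycle. It was highest in psoas, at 13.6, 13.8 and 27.0 CPM in EDL, 67.2, 32.1 and 96.7 CPM in psoas, and 28.1, 26.5, 24.3 and 17.5 CPM in soleus. All 3 psoas libraries were above the EDL and soleus libraries, with psoas 2 close to them. It was upregulated 3.62-fold in psoas vs EDL (log2 fold change 1.86, SE 0.39, adjusted p = 0.0145) and downregulated 2.71-fold in soleus vs psoas (log2 fold change -1.44, SE 0.35, adjusted p = 0.0178). Soleus and EDL overlapped (log2 fold change 0.42, SE 0.35, adjusted p = 0.425). With only the untrimmed libraries the soleus vs psoas value was -2.01 (adjusted p = 0.0176). The call against psoas was lost without psoas 3 and without soleus 4, and the call against EDL without EDL 1, without EDL 2 and with only the untrimmed libraries.

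The psoas libraries that were high in Pcx were also high in 5 nerve markers, whose summed level was 56.2, 18.1 and 83.9 CPM in psoas 1, 2 and 3 and between 29.9 and 41.1 CPM in soleus. In EDL, where Pcx was lower than in psoas, this sum was 53.8, 51.8 and 33.5 CPM. Of the 5 nerve markers, 0 passed the edgeR test in psoas vs EDL or in soleus vs psoas, beside 4.76% to 7.75% of all genes in each direction. In each comparison 1 had an unadjusted p under 0.05, and DESeq2 called 0 and 1 and limma-voom 0 and 0. Adipocytes also express Pcx. Their 7 markers summed to between 88.7 and 189.5 CPM in psoas and between 151 and 312 CPM in soleus. In EDL they summed to between 106 and 222 CPM. Most of each sum was Fabp4, at 79.1 CPM (psoas 3) to 196 CPM (EDL 2), so the sum says little of the other markers. The part of other cells in the Pcx difference was not tested.

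**Figure D3:**
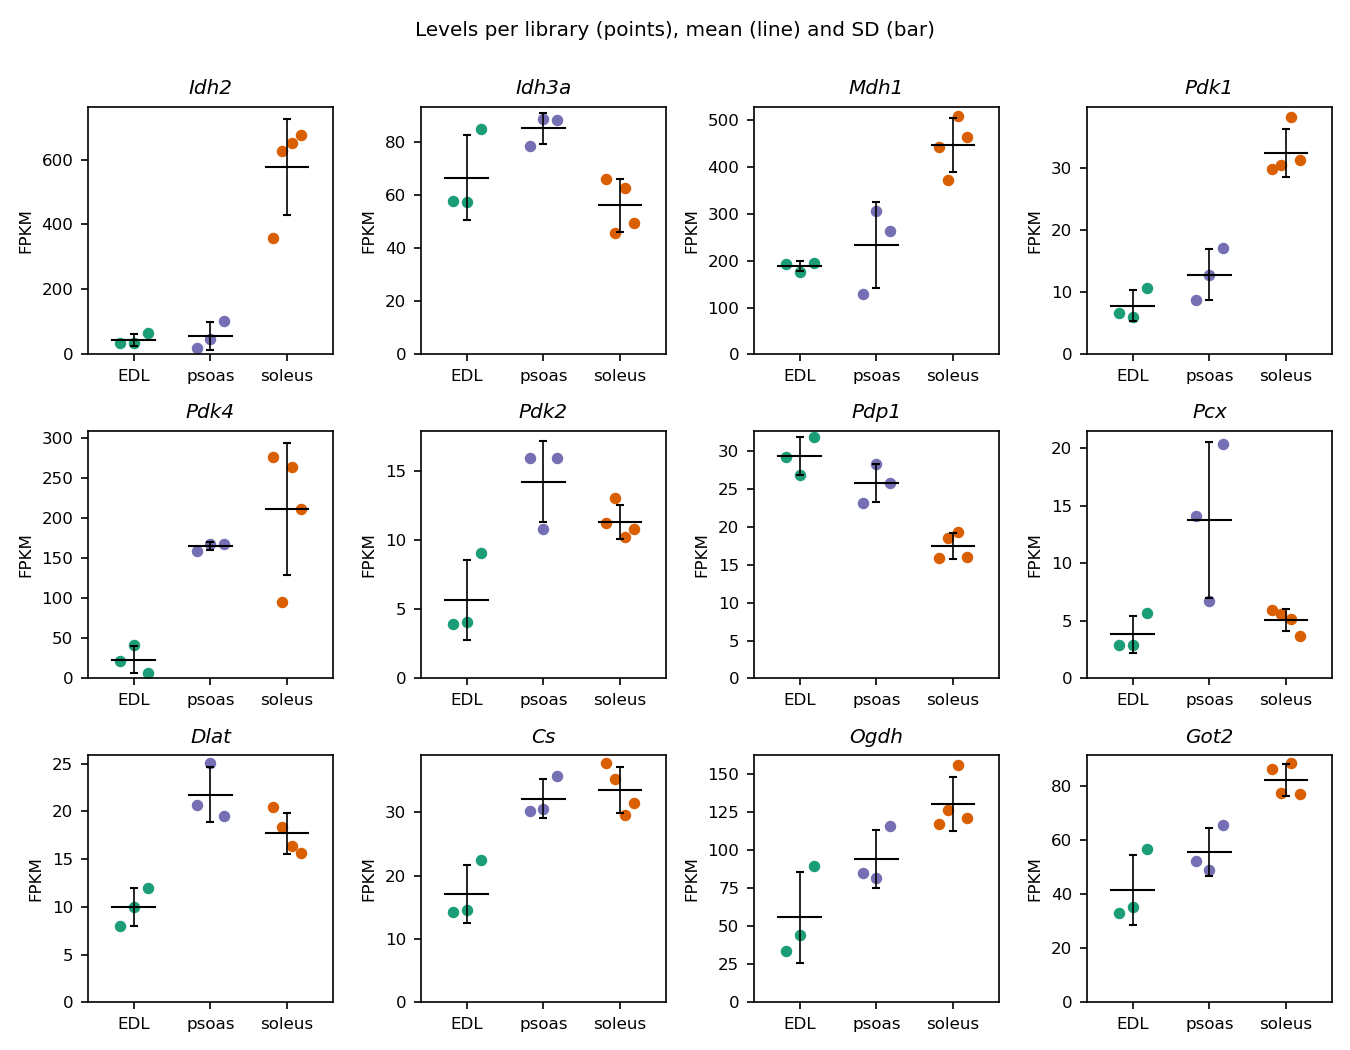
Expression levels (FPKM, axis from 0) of 12 genes per library (points), with the mean (line) and SD (bar) of EDL (n = 3), psoas (n = 3) and soleus (n = 4). Idh2, Mdh1 and Pdk1 are high in soleus, Pdk4, Dlat and Cs are low in EDL, Pcx is high in psoas, and Pdp1 and Idh3a have their lowest mean in soleus.

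Of the 11 TCA cycle genes, 4 were upregulated in soleus vs EDL (Cs, Ogdh, Dlst and Suclg2), beside 9.79% of all genes. In soleus vs psoas 0 passed with edgeR (2 at an unadjusted p under 0.05, 1 with DESeq2, 0 with limma-voom). Of all genes, 7.75% were upregulated and 6.78% downregulated there, so few of 11 would be called at that share. In psoas vs EDL 2 were upregulated (Cs and Dlst), beside 4.76% of all genes. The log2 fold changes of the 11 in soleus vs EDL ranged from -0.25 (Idh3a) to 1.22 (Ogdh), with a median of 0.54. In psoas vs EDL all 11 were above 0, from 0.35 to 0.91.

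Cs, citrate synthase, which joins acetyl-CoA to oxaloacetate, was at 82.7, 84.5 and 129.6 CPM in EDL, 174, 176 and 206 CPM in psoas, and 218, 204, 171 and 182 CPM in soleus. EDL 1 and 2 were lowest, EDL 3 came next, and psoas and soleus overlapped. The increase was 1.96-fold in soleus vs EDL (log2 fold change 0.97, SE 0.20, adjusted p = 0.00699) and 1.88-fold in psoas vs EDL (log2 fold change 0.91, SE 0.21, adjusted p = 0.0195). Psoas and soleus did not pass (log2 fold change 0.06, SE 0.19, adjusted p = 0.868). With only the untrimmed libraries, which keep 1 EDL and 1 psoas library, the 2 values against EDL were 0.53 and 0.63. These calls were lost in 2 and 5 of 22 alternatives, the second without EDL 1, EDL 2 or psoas 3 among others.

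Ogdh and Dlst encode E1 and E2 of the 2-oxoglutarate dehydrogenase complex, which shares its E3 subunit, Dld, with pyruvate dehydrogenase. Ogdh was at 185, 239 and 488 CPM in EDL, 462, 444 and 632 CPM in psoas, and 637, 689.5, 849 and 658 CPM in soleus. The 3 EDL libraries spanned 185 to 488 CPM, and the soleus libraries were above all others. Ogdh was upregulated 2.33-fold in soleus vs EDL (log2 fold change 1.22, SE 0.31, adjusted p = 0.0203), and with only the untrimmed libraries the value was 0.49 (adjusted p = 0.453). That call was lost in 6 of 22 alternatives, among them the fits without EDL 1, EDL 2 or soleus 3. Dlst was at 78.5, 92.0 and 93.5 CPM in EDL, 152, 155 and 155 CPM in psoas, and 146, 128, 134 and 129 CPM in soleus, and here psoas was highest, with its 3 libraries within 152 to 155 CPM. It was upregulated in psoas vs EDL (log2 fold change 0.81, SE 0.15, adjusted p = 0.00926) and in soleus vs EDL (log2 fold change 0.61, SE 0.14, adjusted p = 0.0128), and both calls were lost without EDL 1 and with only the untrimmed libraries.

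Succinyl-CoA ligase pairs the alpha subunit Suclg1 with an ATP-forming (Sucla2) or a GTP-forming (Suclg2) beta subunit. Suclg2 was at 42.4, 42.5 and 64.4 CPM in EDL, 37.6, 64.1 and 88.1 CPM in psoas, and 75.3, 96.9, 113 and 104 CPM in soleus, and was upregulated in soleus vs EDL (log2 fold change 0.97, SE 0.28, adjusted p = 0.0335), a call lost in 9 of 22 alternatives. Sucla2 and Suclg1 did not pass in any comparison. Per kilobase, the Sucla2 to Suclg2 ratio was 12.7, 12.8 and 10.1 in EDL, 16.8, 13.5 and 8.59 in psoas, and 9.14, 5.40, 6.06 and 5.93 in soleus. Every soleus library lay below every EDL library, and soleus 1 overlapped psoas 3.

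Isocitrate is oxidized by the NAD-dependent enzyme made of Idh3a, Idh3b and Idh3g, by the mitochondrial NADP-dependent enzyme Idh2, and by its cytosolic counterpart Idh1. Idh2 showed the largest soleus to fast muscle difference of the 33 genes. It was at 88.9, 90.8 and 171 CPM in EDL, 49.3, 124 and 266 CPM in psoas, and 928, 1625, 1686 and 1749 CPM in soleus. The lowest soleus library, soleus 1 at 928 CPM, was above the highest fast library, psoas 3 at 266 CPM. Idh2 was upregulated 12.8-fold in soleus vs EDL (log2 fold change 3.68, SE 0.54, adjusted p = 0.00124) and 10.2-fold in soleus vs psoas (log2 fold change 3.35, SE 0.53, adjusted p = 0.00186). Both calls held at an adjusted p under 0.05 in all 22 alternatives, with highest adjusted p-values of 0.0235 and 0.0429. Psoas and EDL overlapped, with psoas spread from 49.3 to 266 CPM (log2 fold change 0.33, SE 0.50, adjusted p = 0.717).

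None of the other isocitrate dehydrogenase genes passed in any comparison. Idh3a, the catalytic subunit of the NAD-dependent enzyme, was at 292, 290.3 and 431 CPM in EDL, 398, 450.2 and 447 CPM in psoas, and 336, 233, 318 and 252 CPM in soleus. The soleus libraries overlapped EDL and were all below psoas, a difference that did not pass (log2 fold change -0.60, SE 0.20, adjusted p = 0.071). By level, Idh2 was the highest of the 33 genes in soleus, at 578 ± 148 FPKM (SD, n = 4), with Mdh1 next at 447 ± 57.2 FPKM. In EDL and psoas Mdh1 led, at 188 ± 10.4 and 233 ± 91.9 FPKM (n = 3), and Idh2 was at 45.2 ± 18.1 and 56.6 ± 42.6 FPKM. Per kilobase, the Idh2 to Idh3a ratio was 0.596, 0.613 and 0.777 in EDL, 0.243, 0.540 and 1.17 in psoas, and 5.42, 13.7, 10.4 and 13.6 in soleus.

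The malate-aspartate shuttle carries cytosolic NADH into the mitochondrion by way of malate. Of its 5 genes besides Mdh2, the cytosolic enzyme Mdh1 and the mitochondrial aminotransferase Got2 passed in soleus vs EDL, beside 9.79% of all genes upregulated. Got1, Slc25a11 (the malate-oxoglutarate carrier) and Slc25a12 (the aspartate-glutamate carrier of muscle) passed in none. Mdh1 was at 497, 452 and 499 CPM in EDL, 333, 784 and 678 CPM in psoas, and 1138, 954, 1306 and 1192 CPM in soleus. The soleus libraries were above all others, and psoas spread from 333 to 784 CPM. The increase was 2.38-fold in soleus vs EDL (log2 fold change 1.25, SE 0.27, adjusted p = 0.0102) and 1.92-fold in soleus vs psoas (log2 fold change 0.94, SE 0.27, adjusted p = 0.0381). The call against EDL was lost in 4 of 22 alternatives (trimming or the run proxy as a factor, without EDL 2, and only untrimmed libraries), and that against psoas in 14.

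Got2 was at 159.6, 169 and 273 CPM in EDL, 251, 237 and 317 CPM in psoas, and 416, 374, 427 and 373 CPM in soleus, and the soleus libraries were again above all others. It was upregulated 1.98-fold in soleus vs EDL (log2 fold change 0.99, SE 0.22, adjusted p = 0.0104), and against psoas it did not pass (log2 fold change 0.57, SE 0.21, adjusted p = 0.105). With only the untrimmed libraries the soleus vs EDL value was 0.49 (adjusted p = 0.348), and the call was also lost without EDL 1 and without EDL 2. The mitochondrial Mdh2 passed in none. The Mdh2 to Mdh1 ratio per kilobase was 0.348 ± 0.0781 in EDL, 0.399 ± 0.127 in psoas and 0.223 ± 0.0224 in soleus (SD, n = 3, 3 and 4). Each soleus library was below each fast library.

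Among 28 neighbouring genes of the same pathways, 8 were upregulated and 3 downregulated in soleus vs EDL, beside 9.79% and 8.8% of all genes. In soleus vs psoas these were 3 and 4, beside 7.75% and 6.78% of all genes. In psoas vs EDL they were 1 and 1, beside 4.76% and 6.34% of all genes. The 3 that fell most were those of the other route for cytosolic NADH and of alanine. Gpd2, the mitochondrial glycerol phosphate dehydrogenase, was at 157, 149.8 and 303 CPM in EDL, 172, 206 and 283 CPM in psoas, and 25.3, 15.6, 16.4 and 20.3 CPM in soleus. It fell 10.5-fold in soleus vs EDL (log2 fold change -3.39, SE 0.30, adjusted p = 7.85e-05) and 11.4-fold in soleus vs psoas (log2 fold change -3.51, SE 0.30, adjusted p = 6.92e-05). Gpd1, its cytosolic partner, fell 5.24-fold and 8.68-fold, and Gpt2, the mitochondrial alanine aminotransferase, fell 5.52-fold and 7.28-fold in the same comparisons. For all 3 the soleus libraries were below every fast library, and the calls held at an adjusted p under 0.05 in all 22 alternatives.

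Set against the malate-aspartate shuttle, the Gpd1 to Mdh1 ratio per kilobase was 0.216, 0.273 and 0.330 in EDL, 0.8004, 0.221 and 0.317 in psoas, and 0.0332, 0.0238, 0.0106 and 0.0220 in soleus, which put each soleus library under each fast library. Slc25a13, the aspartate-glutamate carrier best known from liver, was at 0.911, 0.792 and 0.769 CPM in EDL, 0.897, 0.507 and 0.850 CPM in psoas, and 3.01, 2.24, 6.30 and 2.06 CPM in soleus, and was upregulated in soleus vs EDL (log2 fold change 2.01, SE 0.41, adjusted p = 0.00757) and in soleus vs psoas (log2 fold change 2.13, SE 0.43, adjusted p = 0.00693). Per kilobase, Slc25a12 still exceeded it by 36.2 to 91.5 times in soleus.

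Of the remaining neighbours named by rule, Gpt, the cytosolic alanine aminotransferase, rose in soleus vs EDL (log2 fold change 0.99, SE 0.18, adjusted p = 0.00455), against the direction of Gpt2. Sdhc, a membrane anchor of succinate dehydrogenase, rose in soleus vs EDL (log2 fold change 1.3396, SE 0.30, adjusted p = 0.0107), as did the assembly factor Sdhaf4 (log2 fold change 1.52, SE 0.34, adjusted p = 0.0116) and the glutamate carrier Slc25a22 (log2 fold change 2.12, SE 0.45, adjusted p = 0.00904), the last at 2.53 CPM or less.

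**Figure D4:**
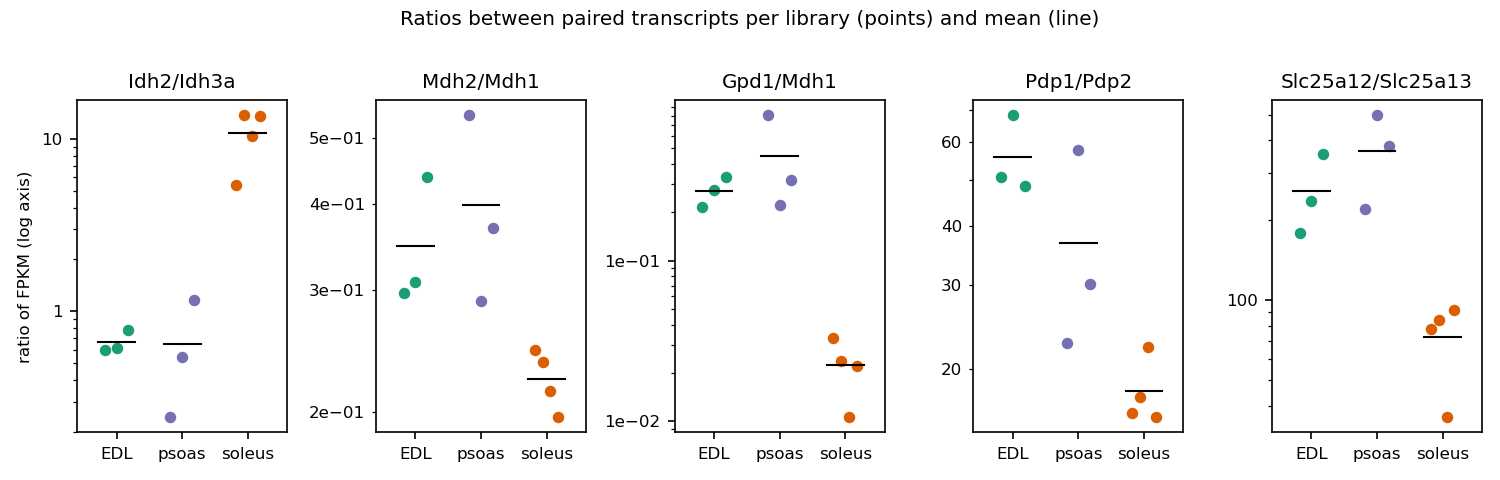
Ratios of FPKM between paired genes per library (points) and their mean (line), each on its own log axis. The soleus libraries stand above the others for Idh2/Idh3a (5.42 to 13.7) and below them for Mdh2/Mdh1, Gpd1/Mdh1, Pdp1/Pdp2 and Slc25a12/Slc25a13.

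The share of the soleus excess that the members had in common with other mitochondrial transcripts was read by dividing each by the summed FPKM of 16 nuclear-encoded respiratory chain genes in the same library. That sum was 2995 ± 556 FPKM in EDL, 3923 ± 753 FPKM in psoas, and 4545 ± 485 FPKM in soleus (SD, n = 3, 3 and 4). Of the 16 genes, 4 were upregulated in soleus vs EDL at an adjusted p under 0.05, beside 9.79% of all genes. In soleus vs psoas and psoas vs EDL 0 passed with edgeR, beside 4.76% to 7.75% of all genes in each direction. At an unadjusted p under 0.05 these were 3 and 4, and DESeq2 called 0 and 2, limma-voom 0 and 1. Relative to this sum, the median log2 difference of the 33 members between soleus and EDL was -0.02, with 16 of 33 above 0. Between soleus and psoas it was -0.17, with 14 above 0.

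On this relative scale Idh2, Pdk4 and Pdk1 stayed higher in soleus than in EDL, with log2 differences of 3.09, 2.79 and 1.47, and Ogdh and Mdh1 had 0.73 and 0.63. Pdp1 had -1.36, Pdk3 -0.93, Idh3a -0.85, Idh1 -0.82, Suclg1 -0.60, Slc25a12 -0.57 and Sucla2 -0.49. Cs and Dlat, which passed the test on the usual scale, had 0.38 and 0.22. In all, 5 members (Idh2, Pdk4, Pdk1, Mdh1 and Got2) had every soleus library above every EDL library on this scale, beside 4.23% of all genes. Ogdh overlapped. There were 8 members with every soleus library below, beside 38.1% of all genes. These values are a description chosen after seeing the data.

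**Figure D5:**
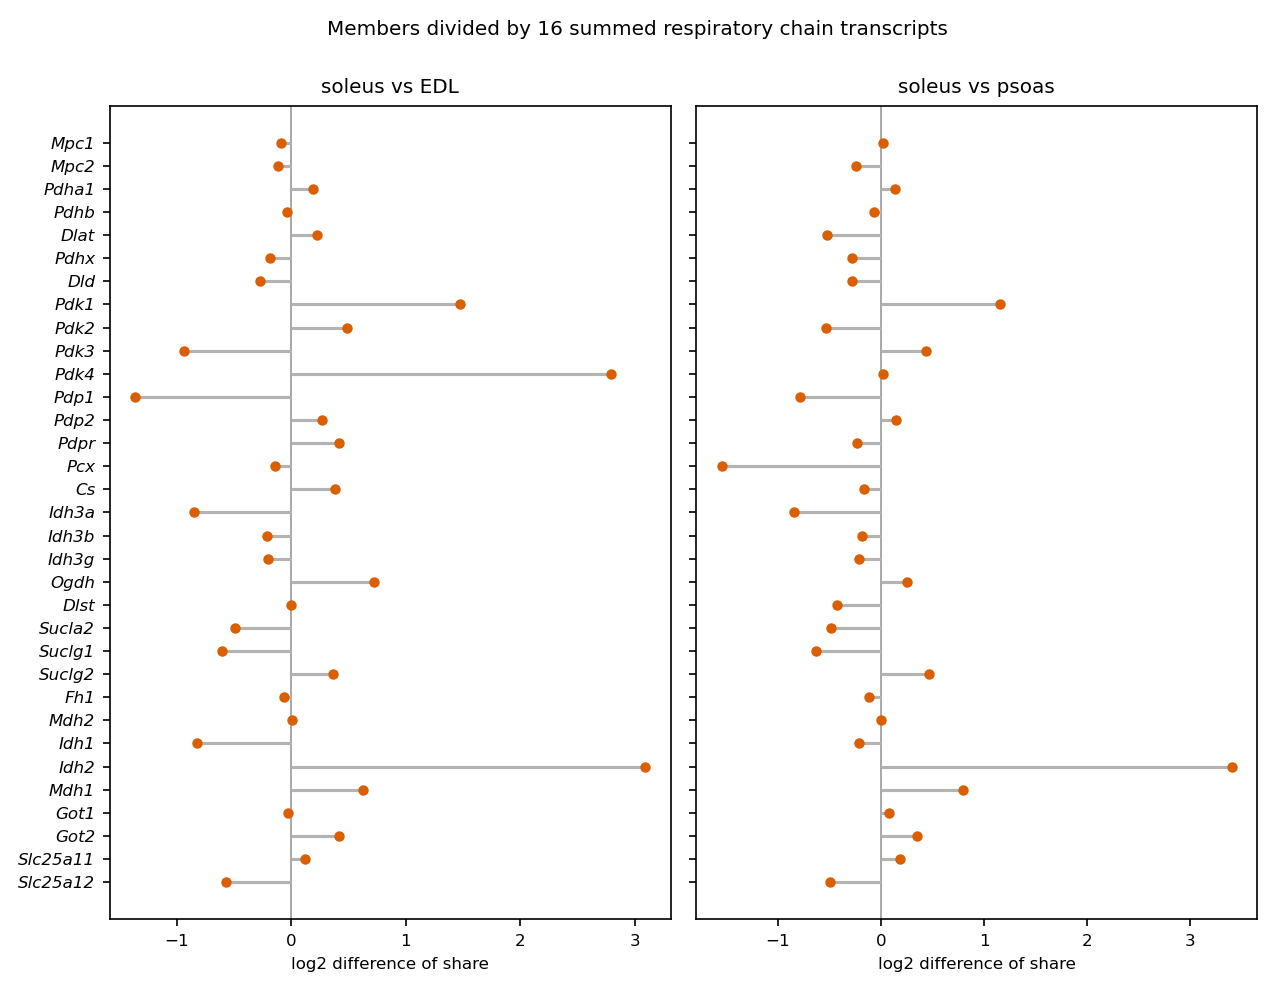
Log2 difference between muscle means of each gene's share of the summed FPKM of 16 respiratory chain genes (horizontal axis), for soleus vs EDL and soleus vs psoas, with no error bars and no test. Most points lie within 1 of 0, while Idh2 lies at 3.09 and 3.40 and Pdk4 at 2.79 against EDL and 0.02 against psoas.

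For 3 animal codes a soleus library and a fast muscle library came from the same code. Between soleus 1 and psoas 1, 26 of the 33 genes were higher in soleus, with a median log2 difference of 0.36. Between soleus 4 and psoas 3, 13 were higher, with a median of -0.10. Between soleus 2 and EDL 3, 24 were higher, with a median of 0.26. Psoas 1 is a trimmed library and the other 5 are not. Idh2 was higher in soleus by 4.24, 2.71 and 3.25 on the log2 scale in the 3 pairs in that order, and Pdk1 by 1.77, 0.87 and 1.502. Mdh1 was higher by 1.77, 0.81 and 0.93. Pdp1 differed by -0.54, -0.69 and -0.78, and was lower in soleus in each pair. Pdk4 was higher by 0.79 and 0.33 over psoas and by 3.73 over EDL. Pcx differed between soleus and psoas by -1.26 and -2.46.

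Other cells also varied between muscles. The 7 tendon and fibroblast markers summed to between 1660 and 2090 CPM in EDL, 291 and 504 CPM in psoas and 477 and 869 CPM in soleus. Of these, 7 of 7 were downregulated in psoas vs EDL and 3 of 7 in soleus vs EDL, beside 6.34% and 8.8% of all genes. In soleus vs EDL 9.79% of all genes were upregulated, and these shares hold for the marker counts below. Of the 7 adipocyte markers, 3 (Plin1, Cidec and Cfd) were upregulated in soleus vs EDL, and of the 5 macrophage markers 1 (Mrc1) was downregulated. Of the 2 brown fat markers listed, Ucp1 was not among the genes in the files. The other, Cidea, was at 0.49 CPM or less in EDL and between 3.35 and 9.51 CPM in soleus. Of the 5 endothelial markers 0 passed with edgeR in soleus vs EDL (2 at an unadjusted p under 0.05, 1 with DESeq2, 0 with limma-voom), and of the 5 erythroid markers 1 was downregulated. The EDL libraries held the lowest level of 22 of the 33 genes, which was not counted over all genes. They also had the most tendon and fibroblast transcripts, and the part of other cells in the comparisons with EDL was not tested.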

How the data were processed

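Total RNA of 10 muscle samples was sequenced from stranded libraries. Per the paper's methods and the submitters' processing notes, Trimmomatic 0.32 was run on libraries of low base quality, TopHat2 2.1.1 aligned the pairs to mm10 (GRCm38.p4), and reads were counted per gene in R. A gene was kept if 3 or more samples reached 10 reads. What the authors deposited are these counts without any normalization. The strand setting of the counting is not given in the sources used here.

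Counts were compared with edgeR 4.0.16 (quasi-likelihood test, TMM, 10 libraries, no covariate, Benjamini-Hochberg adjustment over 16112 genes) in R 4.3.3. Groups were taken from the labels, which give separate animal codes within each muscle but share 3 codes between muscles. The fit has no animal term, so p-values measure the spread between these samples as if all were independent. Exon lengths came from GENCODE M21, and FPKM were normalized CPM per kilobase of exon. Every member was accounted for, and values in every library were given for the 16 members past an adjusted p of 0.05 in a comparison, for Pdk3, and, by fold change or level, for at most 8 pathway neighbours. Of members outside this rule, Idh3a was given in every library after its values were seen. The members and lists were chosen with earlier results of these data known. Total counts of 12737971 to 50431713 set the precision, and 3 counts, the most that a count of 0 allows, are 0.0595 to 0.236 CPM. This covers counting error only.

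Alternatives were DESeq2 1.42.0, limma-voom (limma 3.58.1), other scaling, a mean of at least 1 CPM, 2 muscles alone, a replicate block, factors for trimming, trimming with age (a proxy for the run, which is not given), sex and animal, and each library left out. The fit of untrimmed libraries, the division by respiratory chain genes and the motif AGGTCA were chosen after seeing the data. The statistics were tested on simulated data, with 200 of 16112 genes changed in soleus. At an adjusted p under 0.05 in soleus vs EDL, edgeR recovered 11% of simulated log2 changes of 1, DESeq2 48.5% and limma-voom 10.5%. For log2 changes of 2 these were 89.5%, 94.5% and 85.5%. In the data far more genes were called (1577 upregulated and 1418 downregulated), which makes the adjusted threshold less strict. These shares can therefore understate recovery in the data. A gene that did not pass may still differ by about 2-fold. Tables and figures were made with Python 3.11.15, pandas 2.3.3, numpy 2.4.6 and matplotlib 3.10.9.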

Additional observations from a re-analysis of the deposited data

Results flagged for a closer look

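The 4 soleus libraries were searched for single outlying values by Dixon's ratio in 48 measures, which were the 33 genes and 15 shares, ratios and sums. Groups of 3 were not tested. Chance flags about 1 in 20 such groups, and 3 of the 48 were flagged. Idh2 was at 928 CPM in soleus 1, against 1625 to 1749 CPM in the other soleus libraries, which is still above every fast muscle library. Mpc1 was at 270 CPM in soleus 3, against 196 to 202 CPM. Pdk2 was 9.34% of the summed kinase FPKM in soleus 2, against 3.26% to 4.25%, in the soleus library with the lowest Pdk4 level.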

How the results depend on the processing

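Each muscle has 3 or 4 libraries, and 4 of the 10 were trimmed. Of 726 alternative values of member log2 fold changes, 593 kept their direction and side of the threshold, 120 lost the call, 8 gained it and 5 changed sign. The 5 were Pdk3 in soleus vs EDL with sex as a factor (0.067) and without soleus 3 (0.011; -0.37 to 0.011 over all libraries left out), and Pcx in soleus vs EDL with trimming (-0.16) or the run proxy (-0.28) as a factor and with only untrimmed libraries (-0.21), none called in the reported fit. At an adjusted p under 0.05, the 15 calls in soleus vs EDL became 5 with trimming as a factor and 3 with the run proxy, and were 6 to 19 when each library was left out. Over all genes, 1577 upregulated and 1418 downregulated calls became 623 and 465 with trimming, and 456 and 273 with the run proxy. The 5 in soleus vs psoas became 2 to 7 with a library left out, and the 6 in psoas vs EDL became 1 to 10. By the stricter rule (adjusted p below 0.01, over 2-fold), the 3 in soleus vs EDL became 5 with DESeq2 and 5 with limma-voom (1 to 8 with a library left out). The 2 in soleus vs psoas became 1 to 2 with a library left out. The 1 in psoas vs EDL became 4 with DESeq2, 2 with limma-voom, 0 with the 2 muscles alone, 5 with trimming, 5 with the run proxy, 4 with sex as a factor and 3 with the animal as a random effect (0 to 7 with a library left out). With only untrimmed libraries, calls by both rules became fewer in all 3 comparisons. As that fit keeps 1 EDL and 1 psoas library, a lost call cannot be told apart from the loss of libraries. The cause was not tested, beyond the smaller number of libraries where some are left out.

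Of the 9 pairs of libraries that share a replicate number, 1 shares an animal code, and deviations from the group means correlated over 0.1 in 4 of the 9 (-0.23 to 0.50). In the 3 pairs that share an animal code they correlated at 0.19 to 0.38. With the animal as a random effect in limma-voom the counts at an adjusted p under 0.05 were 16, 6 and 7, in the order given below. With a replicate block, the counts at an adjusted p under 0.05 were 14, 3 and 7, and at the stricter rule 2, 2 and 0, for soleus vs EDL, soleus vs psoas and psoas vs EDL.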
